A study of Mus musculus with 2 samples.

Results

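The spliceosome core and U6 protein genes described here are 43 mouse genes that encode the proteins of the U6, U4, U5, U2 and U1 small nuclear ribonucleoprotein particles (snRNPs), the Sm and LSm protein rings, and close partners of U6 RNA. They were taken by gene symbol from the feature lists of 2 single-cell RNA sequencing libraries, from a list of names. All 43 were found among the 32285 genes listed, and all 43 were counted, the least counted one, Sf3a2, with 1091 unique molecular identifiers (UMIs, each marking 1 captured transcript molecule) over both libraries. The number of genes that reached 50 UMIs over both libraries, the minimum used for comparison across all genes, was 16752.

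The libraries came from entire mouse embryos on embryonic day 9.5. The wild-type library came from Usb1+/+ embryos and the other from Usb1-null (Usb1-/-) embryos, which carry a germline CRISPR/Cas9 deletion in Usb1, described both as around exon 2 and as exons 1 and 2, and came from crosses of heterozygous mice. How many embryos went into each library is not stated. Dissociated cells were barcoded with the 10x Genomics 3′ kit of v3.1 chemistry, and the extracted molecule is labelled as nuclear RNA. With 1 library per group, no difference below has a replicate check or a test, and every interval is a 95% interval for counting error only.

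After filtering, 15161 wild-type cells with 21732106 UMIs and 13018 Usb1-null cells with 33383886 UMIs remained, with a median of 1243 and 2299.5 UMIs per cell. Mitochondrial transcripts took 0.435% and 0.191% of UMIs, and ribosomal protein transcripts 2.60% and 1.82%. Xist, the RNA of the inactive X chromosome, was at 2451 CPM (UMIs of a gene in 1000000) in the wild-type and 0.779 CPM in the Usb1-null library, and 4 Y-linked genes summed to 14 and 23463 UMIs, so that genotype and sex cannot be told apart here. All 43 genes are autosomal. The libraries had 61 barcode sequences in common, 0.402% of the wild-type and 0.468% of the Usb1-null barcodes. Usb1 itself, the nuclease deleted in the Usb1-null embryos, was counted with 68 UMIs (3.13 CPM) and 47 UMIs (1.41 CPM), a ratio of 0.450 (0.303 to 0.662). The assay reads transcripts at the 3′ end, and the deletion lies near the 5′ end of the gene, so this count checks neither label.

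U6 is the small nuclear RNA at the catalytic centre of the spliceosome. It is made by RNA polymerase III, bound at its 3′ uridines first by the La protein and later by a ring of the LSm2 to LSm8 proteins, and its 3′ end is extended by the uridylyl transferase Tut1 and trimmed by Usb1. U6 pairs with U4 and joins U5 as the tri-snRNP, and is released from U4 when the spliceosome is activated. U1 and U2 recognise the 5′ splice site and the branch site, and a ring of 7 Sm proteins holds the U1, U2, U4 and U5 RNAs. An LSm ring with Lsm1 in place of Lsm8 works in the cytoplasm, in the decay of mRNA.

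RNA without a poly(A) tail is outside the reach of this assay, so what follows concerns the mRNAs of the proteins.

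Summed over the 43 genes, the transcripts took 0.391% (0.388 to 0.394) of UMIs in the wild-type and 0.363% (0.361 to 0.365) in the Usb1-null library, a ratio of 0.928 (0.920 to 0.936). The median log2 ratio of the genes (Usb1-null over wild-type, after 1 CPM was added to each level) was -0.17, beside -0.023 over the 8381 genes that had at least the UMIs of the least counted member. Of the 43 genes, 31 were below 0 and 12 above, where 53.8% of the 8381 genes were below 0. At least 20% lower in the Usb1-null library, on the scale with 1 CPM added, were 9 genes, namely Lsm3, Lsm4, Lsm7, Snrpd2, Snrpg, Snrpa, Sf3a2, Sf3a3 and Sf3b2, where 14.5% of all 16752 genes and 13.4% of the 8381 genes were. At least 25% higher, the same fold in the other direction, were 3, namely Snrpf, Snrnp200 and U2af2, where 14.8% of all genes and 7.03% of the 8381 were. The other 31 genes were within this fold threshold. At a fold of 1.5, Lsm7 and Snrpd2 were lower and Snrpf higher, where 3.96% of all genes were lower and 5.7% higher, and 3.51% and 1.78% of the 8381. The summed share therefore differed by a few percent between the libraries, and single genes by more, in both directions. Of these counts past a fold, that of the 9 lower genes lay above the share of the 8381 genes, and the others near it.

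The size of the summed difference moved with UMIs per cell. When the cells of each library were divided into 3 groups of near equal size by UMIs, the share of the 43 genes was 0.435%, 0.398% and 0.372% from the shallowest to the deepest in the wild-type library, and 0.394%, 0.365% and 0.351% in the Usb1-null library. Among cells with 1500 to 2500 UMIs, 4107 wild-type and 4944 Usb1-null cells, the shares were 0.380% (0.375 to 0.384) and 0.372% (0.369 to 0.376), a ratio of 0.981. In that range the median log2 ratio of the 43 genes was -0.076, beside 0.027 over the 16752 genes, whose median in all cells was -0.0015. Shares that fall with depth within a library were thus seen in both, and the wild-type library was the shallower one. With each cell thinned to an equal number of UMIs, and cells with fewer left out, the ratio of the summed share was 0.934. What part depth had in the difference between the libraries was not tested.

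**Figure D1:**
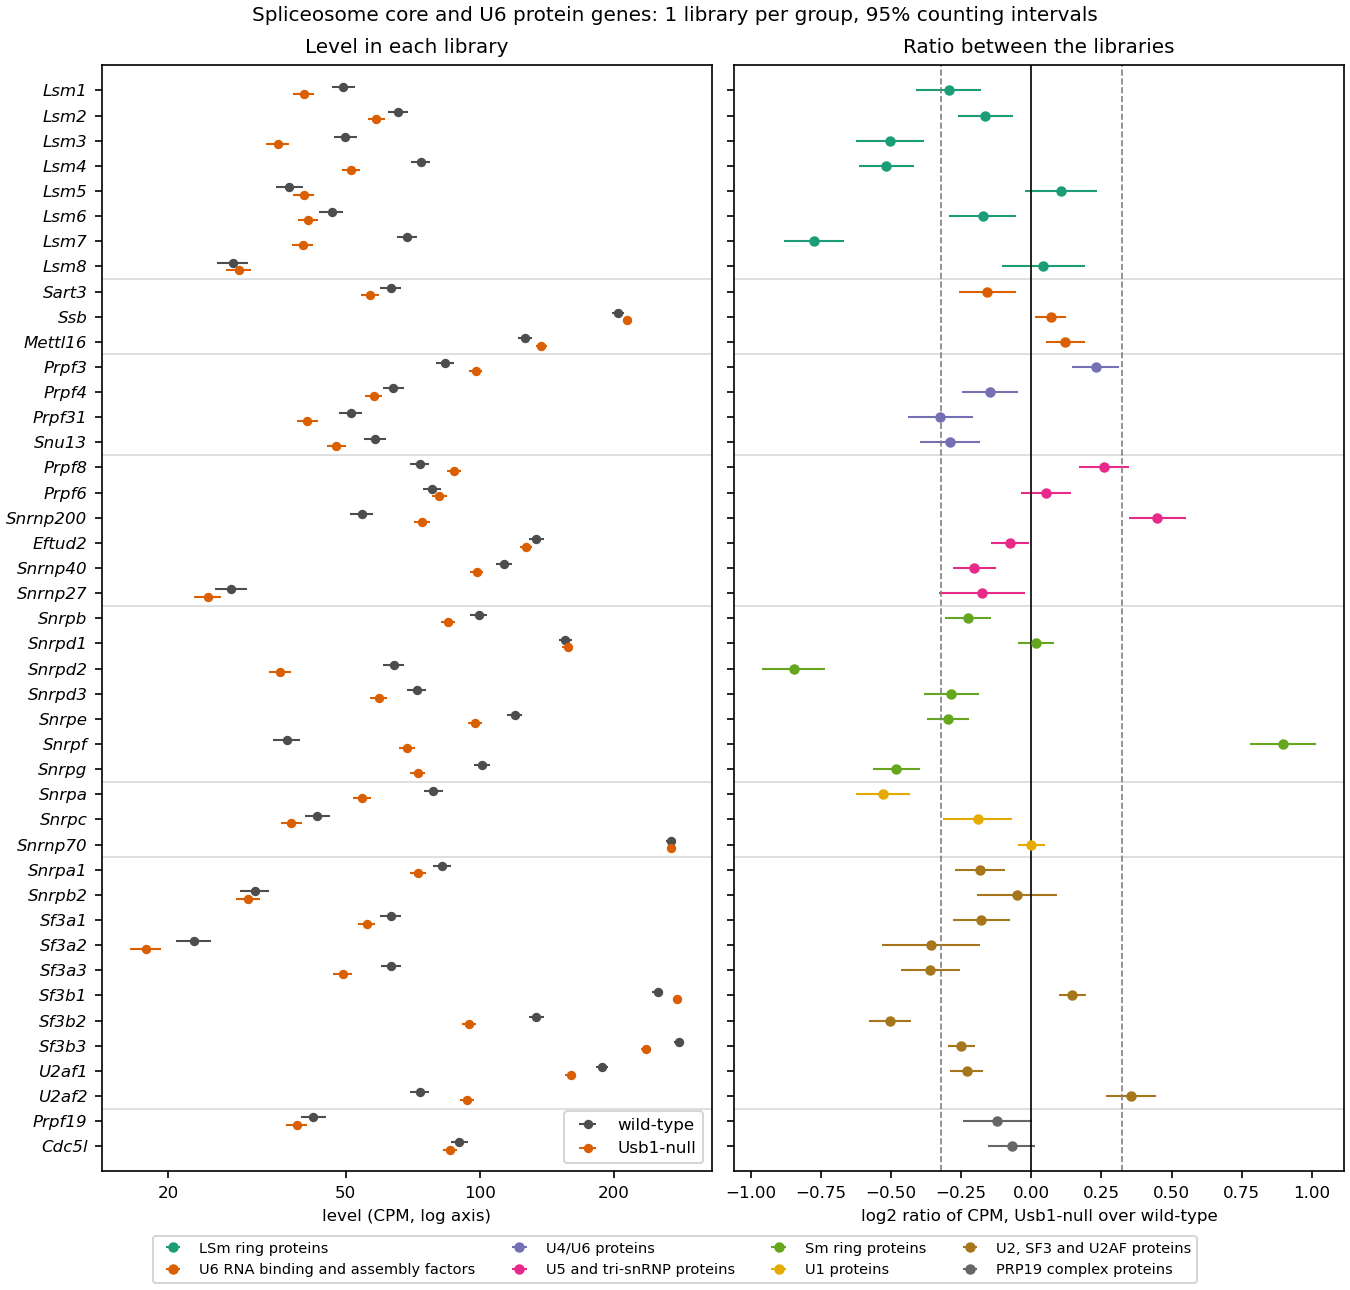
Level of each of the 43 genes in the wild-type (grey) and Usb1-null (orange) library in CPM on a log axis (left), and the log2 ratio of Usb1-null over wild-type, coloured by role (right). Points are 1 library each, bars are 95% counting intervals, and dashed lines mark the fold threshold. Ratios are drawn without the 1 CPM added for the threshold, so Prpf31, at 0.798, lies just past the line but counts as within. Snrpf stands alone at the right with a ratio of 1.86, and Lsm7 and Snrpd2 lie farthest to the left at 0.585 and 0.556.

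The 8 LSm genes were the role group with the lowest ratio, 0.802 (0.780 to 0.824) on their summed level, which was 419 CPM in the wild-type and 336 CPM in the Usb1-null library. Lsm7, a subunit of both the nuclear and the cytoplasmic ring, was at 68.6 CPM (65.2 to 72.2) and 40.1 CPM (38.0 to 42.3). It was the lowest of the ring in ratio, at 0.585 (0.543 to 0.630). Lsm4, a ring subunit with an arginine- and glycine-rich tail, was at 73.7 and 51.5 CPM, a ratio of 0.699 (0.653 to 0.749). Lsm3, a subunit of both rings, was at 49.9 and 35.2 CPM, a ratio of 0.705 (0.649 to 0.766). These 3 genes passed the threshold, and the intervals of the 2 libraries did not overlap at any of them.

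The subunits that set the rings apart did not share that size of difference. Lsm1, which defines the cytoplasmic ring, was at 49.5 and 40.3 CPM, a ratio of 0.815 (0.752 to 0.884). Lsm8, which defines the nuclear ring that binds U6, was at 27.9 and 28.8 CPM, a ratio of 1.03 (0.930 to 1.14). It was the lowest LSm gene in level in both libraries. Of the subunits common to both rings, Lsm2 was at 65.7 and 58.6 CPM (0.893, 0.833 to 0.956) and Lsm6 at 46.5 and 41.2 CPM (0.887, 0.817 to 0.963). Centred on gene span (described below), their log2 ratios were 0.19 and -0.088. Lsm5 was at 37.4 and 40.3 CPM (1.08, 0.986 to 1.18). The intervals of the ratio held 1 for Lsm5 and Lsm8. The order of levels changed with these differences. In the wild-type library the intervals of Lsm7 overlapped those of Lsm4 and Lsm2 at the top, whereas in the Usb1-null library they overlapped those of Lsm1, Lsm5 and Lsm6, and Lsm2 was the highest.

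The 3 proteins that bind U6 outside the ring summed to 394 and 408 CPM, a ratio of 1.04 (1.01 to 1.07), and none passed the threshold. Ssb encodes the La protein, which binds the uridines of new polymerase III transcripts. It had the highest level of the 3, 204 and 214 CPM, with a ratio of 1.05 (1.01 to 1.09). Mettl16, the methyltransferase that modifies an adenosine of U6, was at 126 and 137 CPM, a ratio of 1.09 (1.04 to 1.14). Sart3, which helps U6 to pair again with U4, was at 63.2 and 56.7 CPM, a ratio of 0.897 (0.836 to 0.962).

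The 4 proteins of the U4/U6 particle had a ratio of 0.95 (0.918 to 0.983) on their sum, and of 0.996 among cells with 1500 to 2500 UMIs. Prpf3, which binds U4/U6 together with Prpf4, had the highest level and ratio, at 83.5 and 97.8 CPM (1.17, 1.11 to 1.24), whereas its partner Prpf4 was at 64.0 and 57.8 CPM (0.904, 0.843 to 0.969). Prpf31, which binds U4 with Snu13, had the lowest ratio, at 51.4 and 41.0 CPM (0.798, 0.737 to 0.865). With 1 CPM added its log2 ratio of -0.32 fell just short of the threshold. Snu13, which binds a kink in the U4 RNA, was at 58.3 and 47.7 CPM (0.817, 0.759 to 0.881).

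Among the 6 U5 and tri-snRNP genes the sum had a ratio of 1.03 (1.00 to 1.05). Snrnp200, the helicase that unwinds U4 from U6, was at 54.3 CPM (51.3 to 57.5) in the wild-type and 74.2 CPM (71.3 to 77.2) in the Usb1-null library. Its ratio of 1.37 (1.27 to 1.46) was the highest of the group and the only one past the threshold. Prpf8, the scaffold that holds the catalytic centre, was at 73.3 and 87.6 CPM (1.20, 1.13 to 1.27). Eftud2, the GTPase of the U5 particle, had the highest level of the group, at 134 and 127 CPM (0.948, 0.904 to 0.994). Snrnp40, a WD-repeat protein of U5, had the lowest ratio, at 113 and 98.4 CPM (0.869, 0.824 to 0.916). Prpf6, which bridges U5 and U4/U6, had a ratio of 1.04 and Snrnp27 one of 0.886.

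The 7 Sm genes, whose products form a ring with 1 copy of each subunit, showed the widest spread of ratios of any role group, although their sum differed by less, at 649 and 576 CPM (0.887, 0.868 to 0.907). Among cells with 1500 to 2500 UMIs the ratio of the Sm sum was 1.01 and the median log2 ratio -0.018 in place of -0.28, so the direction of the sum did not hold there, whereas the LSm sum had a ratio of 0.837. Snrpf was at 36.9 CPM (34.4 to 39.5) in the wild-type and 68.7 CPM (66.0 to 71.6) in the Usb1-null library, a ratio of 1.86 (1.72 to 2.02). Snrpd2 was at 64.1 CPM (60.8 to 67.6) and 35.6 CPM (33.6 to 37.7), a ratio of 0.556 (0.514 to 0.601). These were the highest and the lowest ratios of all 43 genes. The same pair thus stood in opposite order in the libraries, Snrpd2 above Snrpf in the wild-type and below it in the Usb1-null library, with no overlap of intervals in either.

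Snrpg was the other Sm gene past the threshold, at 101 and 72.5 CPM (0.716, 0.676 to 0.759). Snrpb was at 99.4 and 85.0 CPM (0.855, 0.808 to 0.905), Snrpd3 at 72.2 and 59.3 CPM (0.821, 0.768 to 0.878) and Snrpe at 119.8 and 97.5 CPM (0.814, 0.773 to 0.857). Their log2 ratios among cells with 1500 to 2500 UMIs were 0.027, -0.27 and -0.018. Snrpd1 had the highest level of the ring in both libraries, 156 and 157 CPM, and its ratio of 1.01 (0.969 to 1.06) held 1. Snrpf lies on the minus strand of GRCm38 at chr10:93583029-93589706 and is overlapped by Ccdc38 and 4933408J17Rik on the other strand. Cell Ranger by default counts reads in the sense direction of a gene, and whether the default was used is not stated.

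Of the 3 U1 proteins, Snrpa, which binds a stem-loop of U1 RNA, was at 78.7 and 54.5 CPM, a ratio of 0.693 (0.648 to 0.741). Snrnp70, which binds another U1 stem-loop and was among the most abundant of the 43 transcripts, did not move with it. It was at 268 CPM in both libraries, and its ratio was 1.00 (0.967 to 1.03). Snrpc, a zinc finger protein at the pairing of U1 with the 5′ splice site, was at 43.2 and 37.8 CPM (0.876, 0.804 to 0.954). Snrpa overlaps BC024978 on the other strand, and Snrpg, Sf3b2 and Sf3a2 overlap Gm44941, AC125059.3 and Plekhj1 there. On the same strand, Lsm3 overlaps AC161456.1, and Sf3a3 overlaps Gm12917 and Mir697.

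The 10 U2, SF3 and U2AF genes had a ratio of 0.914 (0.900 to 0.929) on their sum, with 3 genes lower and 1 higher past the threshold. The ratio of this sum was 0.979 among cells with 1500 to 2500 UMIs. Sf3b2, a subunit of the complex that clamps U2 on the branch site, was at 134 and 94.5 CPM, a ratio of 0.705 (0.670 to 0.742). Sf3a3 was at 63.2 and 49.3 CPM (0.779, 0.725 to 0.838) and Sf3a2, the least counted gene, at 22.8 and 17.8 CPM (0.781, 0.692 to 0.882). Both belong to the SF3A trimer, whose other subunit, Sf3a1, was at 63.1 and 55.7 CPM (0.884, 0.824 to 0.948). Of the other SF3B members, Sf3b3 and Sf3b1 were closer to 1 than Sf3b2. Sf3b3 was the highest of all 43 genes in the wild-type library, at 279.7 CPM against 235 CPM (0.841, 0.813 to 0.870), and Sf3b1 the highest in the Usb1-null library, at 277 CPM against 250.4 CPM (1.11, 1.07 to 1.14).

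The subunits of U2AF, which reads the 3′ splice site, lay on opposite sides of 1. U2af2, the large subunit, which binds the polypyrimidine tract, was at 73.3 and 93.8 CPM, a ratio of 1.28 (1.20 to 1.36). U2af1, the small subunit, which binds the AG dinucleotide, was at 188 and 159.9 CPM, a ratio of 0.852 (0.818 to 0.888). The U2 proteins Snrpa1 and Snrpb2 had ratios of 0.881 and 0.965, and log2 ratios of 0.066 and 0.25 among cells with 1500 to 2500 UMIs. Both PRP19 complex genes were within the threshold. Prpf19, a ubiquitin ligase, was at 42.3 and 38.9 CPM (0.919, 0.844 to 1.00) and Cdc5l, its partner, at 89.9 and 85.7 CPM (0.953, 0.899 to 1.01). Among cells with 1500 to 2500 UMIs the log2 ratios of Prpf19 and Cdc5l were 0.085 and 0.074, and the ratio of their sum was 1.06 in place of 0.942.

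Of the 12 genes past the threshold, 7 stayed past it in the same direction under every one of the 10 alternatives run per gene, namely Lsm7, Snrpd2, Snrpa, Sf3b2, Snrpf, Snrnp200 and U2af2. The other 5 fell short of it when ratios were centred on gene span (described below), and Sf3a3 also when cells were thinned or taken from 1500 to 2500 UMIs. Among cells of that range the log2 ratio was -0.85 for Lsm7, -0.60 for Snrpd2, 1.01 for Snrpf and 0.73 for Snrnp200. These 4 genes were past the threshold in that range too. There, UMIs per cell were bounded but not equal between the libraries, and genes per cell were not matched. All the alternatives reuse the same libraries. How many of all genes past the threshold would stay past it under them was not computed. None of the alternatives changed the fold, and at the higher fold given above only Lsm7, Snrpd2 and Snrpf were past it.

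Cells of both libraries were clustered together without the 43 genes, and 17 clusters that held 100 or more cells of each library were compared, each as 1 pair of summed counts. An adult hepatocyte-like cluster of 54 and 42 cells and cluster 18 of 19 and 25 cells were smaller and were not compared. Cell class names with the ending "-like" rest on marker genes, and clusters 5, 6, 8, 12 and 15 carry a number only, as they did not meet the naming rule. In cluster 5, neural crest and craniofacial mesenchyme markers were raised in equal number. The name of the ventral neural tube-like cells rests on more raised markers alone, since their 10 leading genes held 2 markers of that list and 2 of gut and pharyngeal endoderm. In all 17 clusters, 6 genes were lower in the Usb1-null library, namely Lsm7, Snrpd2, Snrpd3, Snrpg, Snrpa and Sf3b2, where 3.91% of the 8381 genes were. Snrpf was higher in all 17, where 3.05% of those genes were. With a finer clustering, without library correction or with another seed, Lsm7, Snrpd3 and Sf3b2 stayed lower and Snrpf higher in every compared cluster. Snrpd2, Snrpg and Snrpa each failed to do so under at least 1 of these. The clusters are parts of the same 2 libraries and not replicates.

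Snrpf was the only one of the 43 genes higher in every compared cluster. Its ratio ran from 1.36 in intermediate mesoderm-like cells to 5.45 in cluster 15, where it rested on 4 and 34 UMIs, with a median of 1.86, and its interval lay above 1 in 13 clusters. In the largest cluster, the somite-like cells, it was at 30.3 and 60.1 CPM (1.98, 1.58 to 2.51), and in neural progenitor-like cells at 44.3 and 74.0 CPM (1.67, 1.33 to 2.11). Snrpd2 ranged from 0.290 in yolk sac and hepatic endoderm-like cells to 0.908 in cluster 15, with a median of 0.575, and its interval lay below 1 in 13 clusters. In somite-like cells it was at 50.9 and 29.2 CPM (0.575, 0.457 to 0.722).

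Lsm7 ranged from 0.366 to 0.778 with a median of 0.512, and its interval lay below 1 in 11 of the 17 clusters. It was at 63.9 and 30.4 CPM in somite-like cells (0.476, 0.384 to 0.589) and at 59.1 and 45.0 CPM in endothelial-like cells (0.762, 0.567 to 1.03). Sf3b2 had an interval below 1 in 12 clusters and Snrpa in 10. Lsm4 was lower in 16 clusters, with cluster 15 as the exception, and Lsm3 in 14. Of the higher genes, Snrnp200 was higher in 15 clusters and U2af2 in 14, each with an interval above 1 in 9. By contrast, Lsm8 was lower in 7 clusters and higher in 10, and Snrnp70 likewise. Small clusters gave extreme ratios at thinly counted genes: Sf3a2 had 3 UMIs over both libraries in its least counted cluster.

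**Figure D2:**
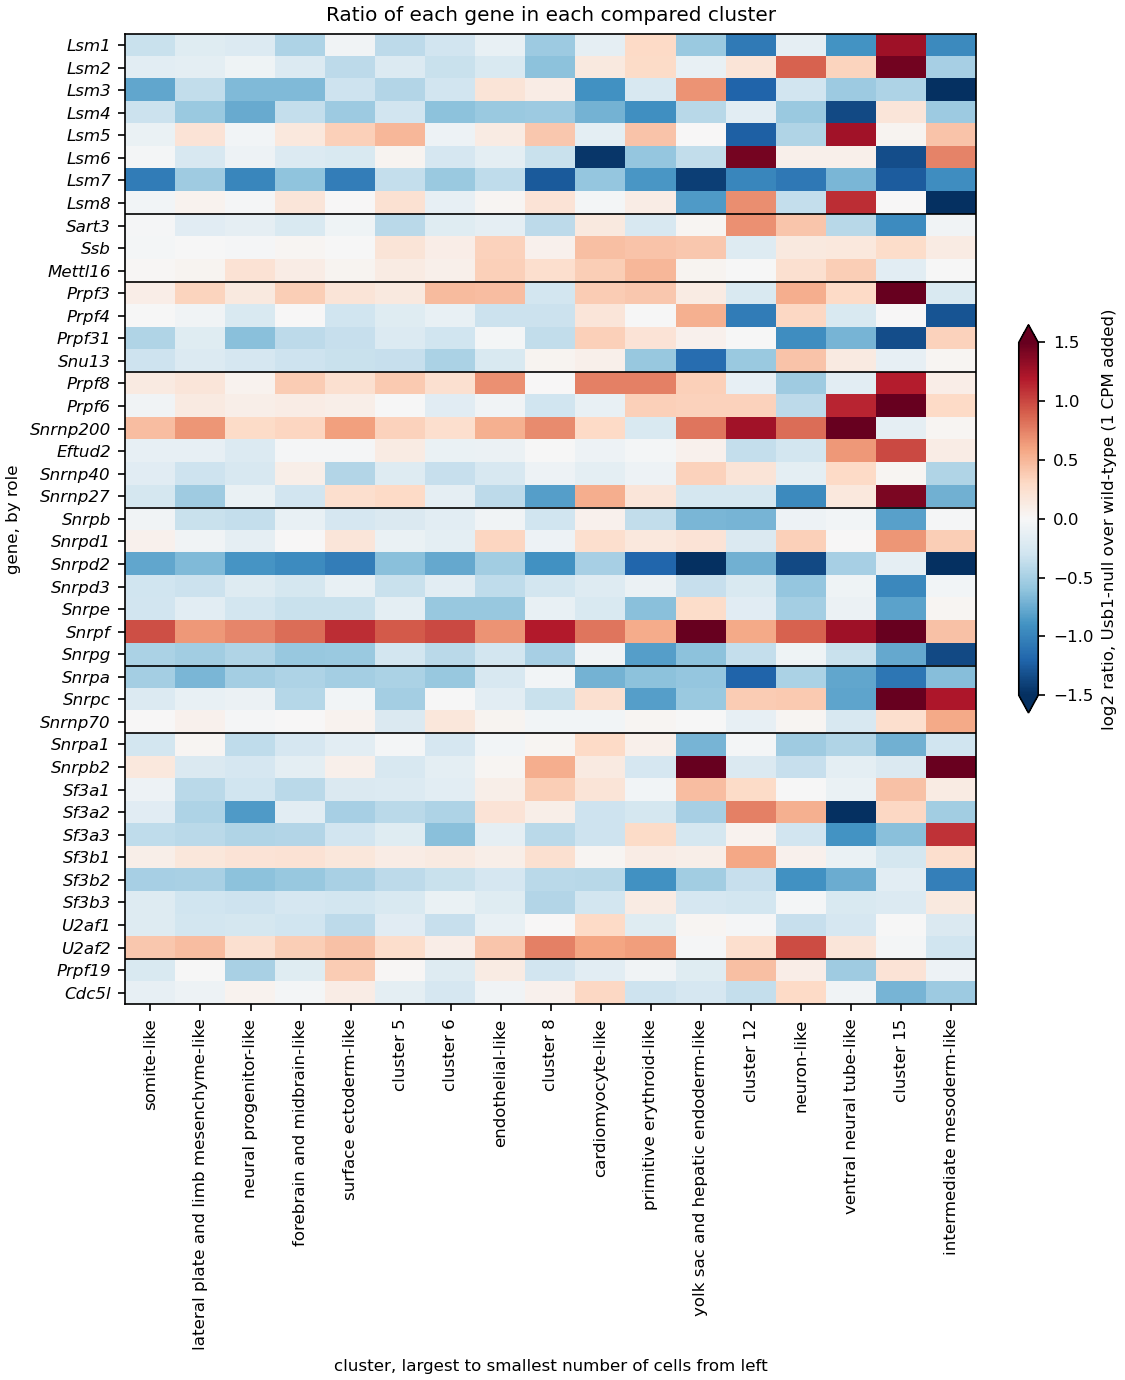
Log2 ratio of Usb1-null over wild-type (1 CPM added) for each of the 43 genes (rows, grouped by role) in each of the 17 compared clusters (columns, from the most cells at the left). Snrpf is red in every column, and Lsm7, Snrpd2, Snrpd3, Snrpg, Snrpa and Sf3b2 are blue in every column. The strongest colours at the right belong to small clusters.

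The ratios moved with the span of the gene, from its first to its last annotated base. Over the 8380 genes with a span and at least the UMIs of the least counted member, the median log2 ratio was -0.35 for genes up to 5 kb, -0.19 from 5 to 10 kb, -0.082 from 10 to 20 kb, -0.0043 from 20 to 50 kb and 0.020 above 50 kb. The 43 genes are short, with a median span of 15.6 kb against 36.5 kb over those genes. In the same ranges their medians were -0.46 (4 genes), -0.29 (12 genes), -0.18 (13 genes), -0.072 (12 genes) and 0.086 (2 genes). Pearson's r of the log2 ratio with log10 span was 0.38 over the 43 genes, a description of points that share both libraries, and 0.21 over the 8380. The ribosomal protein genes, with a median span of 3.29 kb, were lower past the threshold in 66 of 83 cases, where 55.1% of all the genes up to 5 kb were. Their summed ratio was 0.70, and 0.872 among cells with 1500 to 2500 UMIs.

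When each ratio was taken relative to the median of its span range, 27 of the 43 genes were below 0 and the median was -0.088. Past the threshold were then 4 genes on the lower side, Lsm7 (-0.41), Snrpd2 (-0.48), Snrpa (-0.33) and Sf3b2 (-0.49), and 4 on the higher side, Snrpf (1.07), Lsm5 (0.45), Snrnp200 (0.45) and U2af2 (0.43). After the same centring, 8.93% of the 8380 genes were past it on the lower side and 8.96% on the higher side, so these counts of members lie near the background. Lsm5 spans 3.65 kb and was within the threshold before centring. What part span, read placement or RNA type had in the ratios was not tested.

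**Figure D3:**
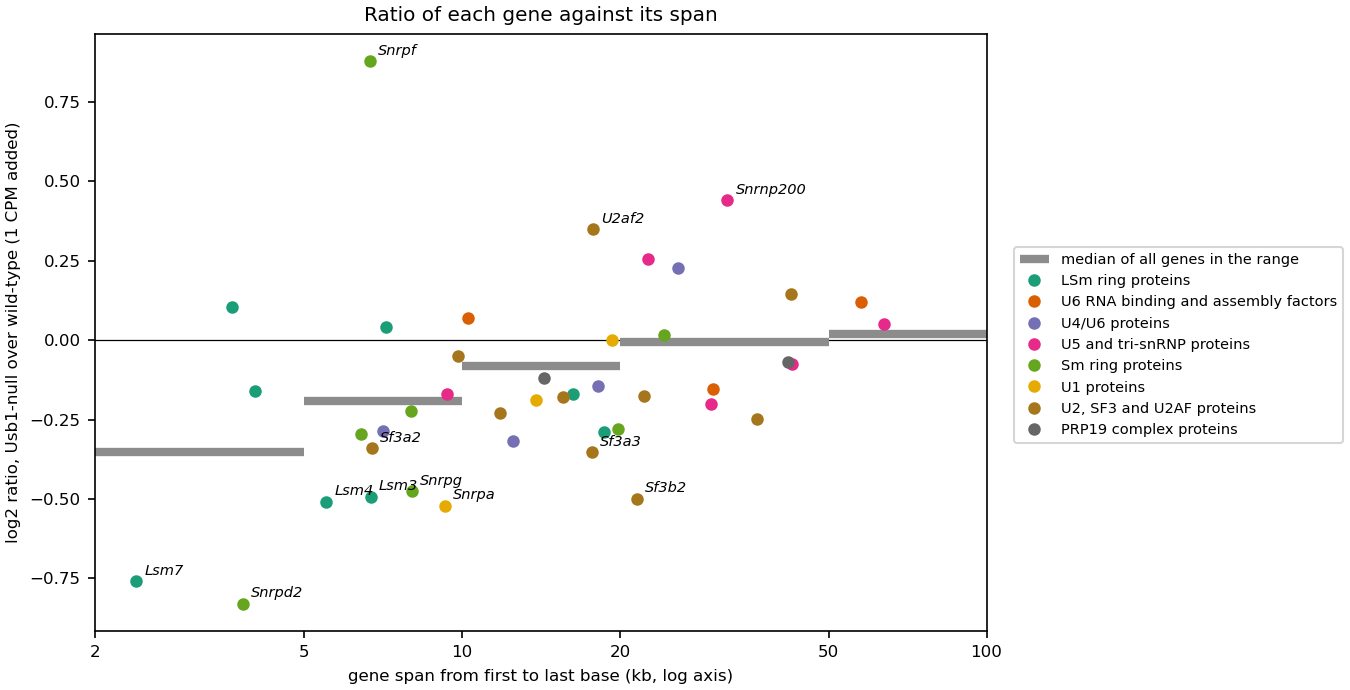
Log2 ratio of Usb1-null over wild-type (1 CPM added) of each of the 43 genes against gene span in kb (log axis), coloured by role. Grey bars are the median log2 ratio of all sufficiently counted genes in each span range, rising from -0.35 below 5 kb to 0.020 above 50 kb. Genes past the threshold are named, and Snrpf lies 1.07 above the bar of its range.

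Levels of the 43 genes as a whole varied more between clusters than between libraries. In the wild-type library their share ran from 0.292% (0.281 to 0.303) in cardiomyocyte-like cells to 0.439% (0.423 to 0.454) in primitive erythroid-like cells and 0.505% (0.489 to 0.522) in cluster 8. In the Usb1-null library the same clusters had 0.297% (0.288 to 0.306), 0.430% (0.410 to 0.450) and 0.472% (0.458 to 0.485). Neural progenitor-like cells had 0.431% and 0.383%, the lowest ratio of the 17 clusters at 0.889 (0.866 to 0.911). Neuron-like cells had 0.331% and 0.319%, and ventral neural tube-like cells 0.325% and 0.306%. The intervals of neuron-like and ventral neural tube-like cells overlapped in each library, whereas neural progenitor-like cells lay above both.

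The Usb1-null share was the lower one in 15 of 17 clusters, with cardiomyocyte-like cells (1.02, 0.969 to 1.07) and cluster 15 (1.01, 0.923 to 1.11) as the exceptions, and the ratio in endothelial-like cells was 0.999 (0.965 to 1.04). Within 1500 to 2500 UMIs per cell, 14 clusters kept at least 50 cells in each library, and the Usb1-null share was lower in 8 of them. There the wild-type share ran from 0.277% in cardiomyocyte-like to 0.424% in primitive erythroid-like cells. The Usb1-null share ran from 0.271% in ventral neural tube-like to 0.454% in primitive erythroid-like cells. Cluster 8 had few UMIs, a median of 721 and 1176.5 per cell, and kept only 17 wild-type cells in this range. Over the 17 clusters, r of the share with the log10 median UMIs was -0.72 in the wild-type and -0.81 in the Usb1-null library.

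**Figure D4:**
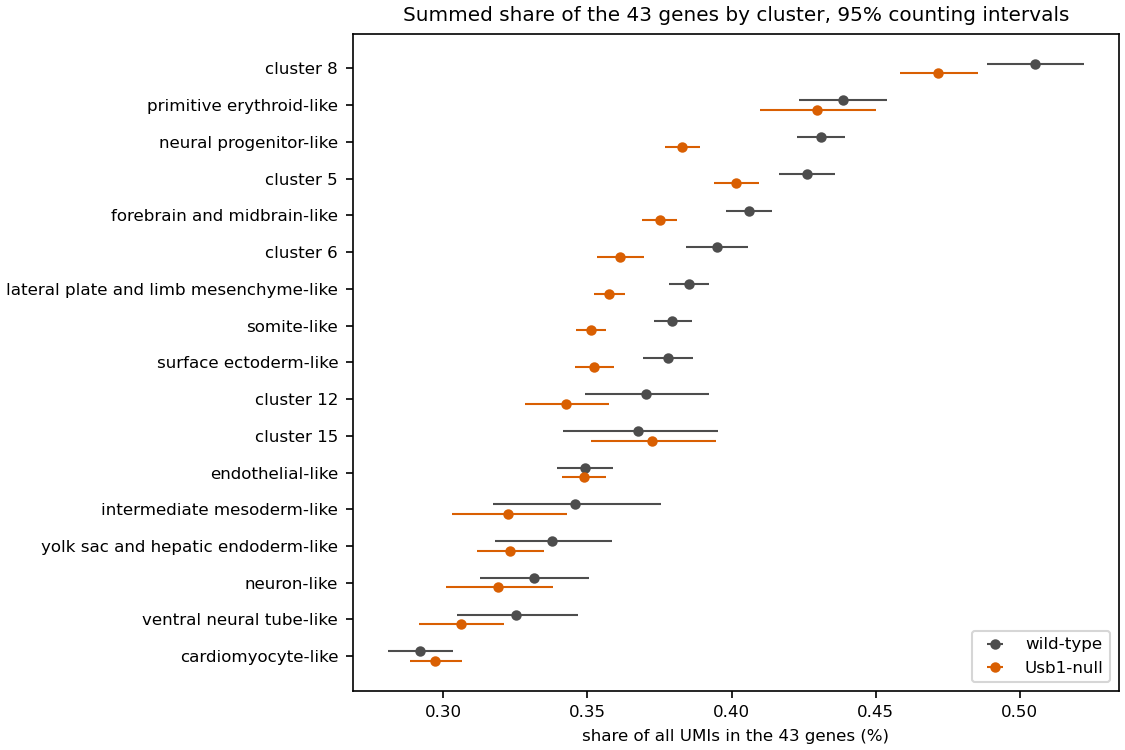
Share of all UMIs in the 43 genes (percent) for each of the 17 compared clusters, sorted by the wild-type value. Points are 1 library each (wild-type grey, Usb1-null orange) and bars are 95% counting intervals. Cardiomyocyte-like cells are lowest at 0.292% and 0.297%, and cluster 8 highest at 0.505% and 0.472%.

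The order of clusters was close between the libraries, with r = 0.96 over 17 pairs of shares, which came from 1 joint clustering. By role, the LSm genes summed from 290 CPM in neuron-like cells to 501 CPM in cluster 8 in the wild-type library, and the Sm genes from 437 CPM in cardiomyocyte-like cells to 993 CPM in cluster 8. Primitive erythroid-like cells, which fill with haemoglobin, had 446 and 379 CPM of LSm genes and 740.3 and 583 CPM of Sm genes. At single genes, Sf3b3 ran from 179.5 CPM in cardiomyocyte-like cells to 389.9 CPM in cluster 8 in the wild-type library. Its profile had an r of 0.85 between the libraries, the highest of any member. This r was negative for Snrnp27 (-0.41), Prpf6 (-0.14), Snrpc (-0.14) and Lsm6 (-0.063) and positive for all others, so single profiles were not all alike between the libraries. Snrnp70 was an exception to the common order, with an r of -0.16 in the wild-type and -0.17 in the Usb1-null library between its level and the sum of the other members. It was highest in primitive erythroid-like cells, at 359 and 367 CPM.

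Across the 17 clusters the share of the 43 genes went with that of 37 proliferation genes, with r = 0.84 in the wild-type and 0.81 in the Usb1-null library, and with that of ribosomal protein genes, with r = 0.86 and 0.93. Without primitive erythroid-like cells the values were 0.83 and 0.77, and 0.87 and 0.93. Clusters of 1 library have their depth in common with these shares, which was not set apart. The genes whose wild-type cluster profile was most like that of the 43 summed, among 8641 others with at least 1000 UMIs, were Ndc1 (r = 0.94), Drg1 (0.94), Pelp1 (0.93), Cmss1 (0.92) and Qtrt1 (0.92). In the Usb1-null library their r was 0.77, 0.91, 0.57, 0.90 and 0.81.

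**Figure D5:**
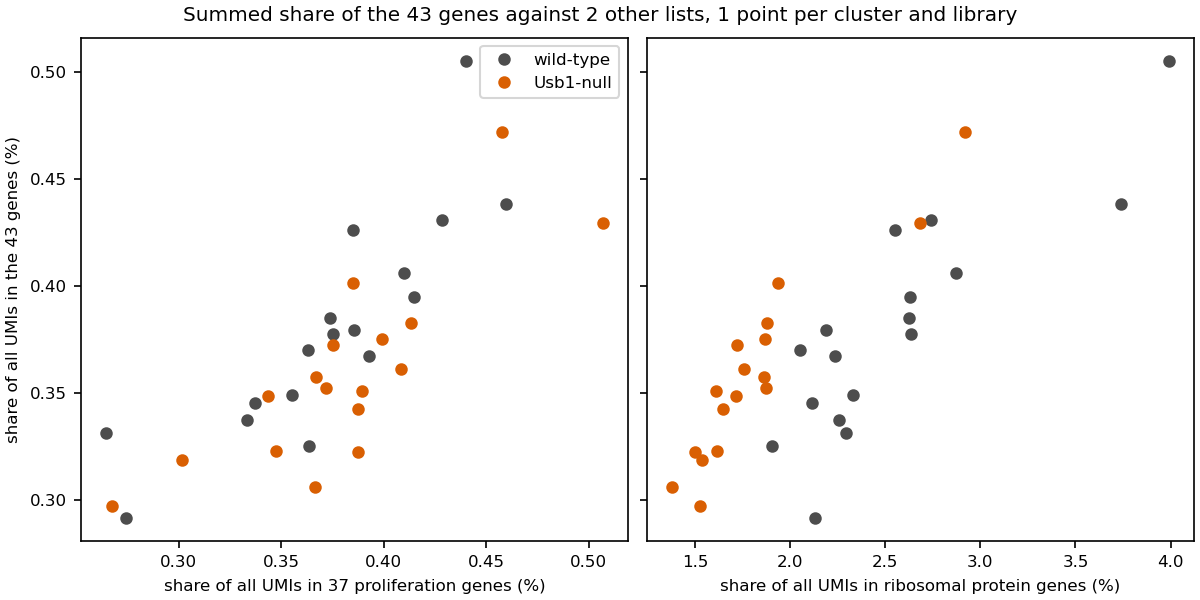
Share of all UMIs in the 43 genes against the share in 37 proliferation genes (left) and in ribosomal protein genes (right), all in percent, with 1 point per compared cluster and library (wild-type grey, Usb1-null orange). The shares rise together in both libraries, with r between 0.81 and 0.93. The ribosomal protein share ran from 1.91% to 3.99% in the wild-type and from 1.38% to 2.92% in the Usb1-null library.

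In single cells these transcripts were sparse. With each cell thinned to 800 UMIs, the 43 genes gave 3.17 UMIs per cell in 12472 wild-type cells and 2.96 in 12714 Usb1-null cells, with a median of 3 members detected in both. Cells without a single member UMI were 5.0% (4.63 to 5.40) and 6.02% (5.62 to 6.45). Left out as too shallow were 2689 wild-type and 304 Usb1-null cells.

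Around the 43 genes, 109 further genes of the splicing pathway were listed and 108 had at least 50 UMIs. Their sum had a ratio of 1.04 (1.03 to 1.04), with 9 genes higher and 15 lower past the threshold and a median log2 ratio of -0.022. Among cells with 1500 to 2500 UMIs 16 genes were higher and 12 lower, with a ratio of 1.09 and a median of 0.051, where the shares of all genes past the threshold had moved to 21.1% higher and 14.6% lower, and those of the 8381 genes to 11.6% and 12.7%. Of 25 further snRNP and branch site proteins, 3 were higher and 4 lower, from Phf5a, a small SF3B subunit, at 73.0 and 48.9 CPM (0.670, 0.625 to 0.718), to Prpf39, a U1-associated protein, at 142 and 207.6 CPM (1.46, 1.40 to 1.53). Of 25 helicases and PRP19-related proteins of the catalytic stage, 1 was higher and 4 lower. Dhx15, the helicase that takes the spliceosome apart, was at 202 and 275 CPM (1.36, 1.31 to 1.41), and Xab2 at 15.3 and 10.4 CPM (0.676, 0.580 to 0.789).

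Of 25 counted snRNP biogenesis factors, 1 was higher and 4 lower. Gemin7, a subunit of the SMN complex that loads Sm rings, was at 17.1 and 9.97 CPM (0.584, 0.502 to 0.679), and Ddx20, another SMN subunit, at 34.1 and 45.1 CPM (1.32, 1.21 to 1.45). Of 11 U7 and U11/U12 proteins, 1 was higher and 1 lower. These were Rnpc3 at 53.0 and 71.6 CPM (1.35, 1.26 to 1.45) and Snrnp25 at 16.1 and 11.4 CPM (0.707, 0.610 to 0.820), both of the minor spliceosome. Of 22 SR proteins and exon junction proteins, 3 were higher and 2 lower. The extremes were Alyref, an mRNA export adaptor, at 20.6 and 31.1 CPM (1.51, 1.35 to 1.69), and Rnps1 at 141 and 105.7 CPM (0.747, 0.712 to 0.784). Each of these lists thus held genes on both sides of the threshold. Their counts are to be read against the 14.5% of all genes that were lower and the 14.8% that were higher, or the 13.4% and 7.03% among the 8381 well counted genes.

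RefSeq promoter windows of GRCm38.p6, each of 300 bases around an annotated start, were at hand for 35 of the 43 genes. The table had no entry for Snrnp40, Sart3, Lsm4, Eftud2, Lsm1, U2af2, Snrpb and Snrpd1. The windows of Lsm7 (1 of its 2, minus strand, chr10:80855160-80855459), Snrpd2 (plus strand, chr7:19149588-19149887) and Snrpf (minus strand, chr10:93589609-93589908) are shown because these genes had the most extreme ratios. Capitals mark the matches, on either strand, to any of 7 motifs, which are the GC-rich NRF1 consensus, the ETS letters CCGGAAGT, the YY1 letters AAGATGGC, and the E-box, CCAAT box, TATA box and GC box. No matches overlap in these windows.
Lsm7: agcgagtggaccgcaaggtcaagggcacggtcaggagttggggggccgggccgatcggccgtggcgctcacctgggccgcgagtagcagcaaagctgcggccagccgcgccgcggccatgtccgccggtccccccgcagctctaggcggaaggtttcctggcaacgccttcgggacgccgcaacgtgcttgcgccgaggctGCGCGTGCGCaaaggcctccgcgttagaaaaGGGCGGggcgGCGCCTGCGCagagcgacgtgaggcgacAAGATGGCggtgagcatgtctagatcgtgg
Snrpd2: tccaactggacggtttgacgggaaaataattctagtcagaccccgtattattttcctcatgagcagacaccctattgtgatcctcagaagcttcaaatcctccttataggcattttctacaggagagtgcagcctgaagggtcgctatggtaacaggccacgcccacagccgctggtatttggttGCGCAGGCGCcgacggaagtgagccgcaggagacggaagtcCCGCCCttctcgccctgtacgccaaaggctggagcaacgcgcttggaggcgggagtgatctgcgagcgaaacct
Snrpf: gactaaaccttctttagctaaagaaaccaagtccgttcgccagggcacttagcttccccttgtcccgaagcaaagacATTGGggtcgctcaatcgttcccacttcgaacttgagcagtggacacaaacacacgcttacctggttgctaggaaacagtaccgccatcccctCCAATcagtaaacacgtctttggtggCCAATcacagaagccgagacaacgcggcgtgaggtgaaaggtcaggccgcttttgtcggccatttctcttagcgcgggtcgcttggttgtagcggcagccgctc

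Lsm7 and Snrpd2, the genes with the lowest ratios, both had NRF1 letters and a GC box, and Lsm7 also the YY1 letters, whereas Snrpf had 3 CCAAT matches and none of these. Over the 35 genes, the NRF1 letters were in 8 (22.9%) beside 7.45% of 16479 protein-coding genes, and the ETS letters in 7 (20%) beside 5.95%. The other members with NRF1 letters were Prpf3, Prpf6, Snrnp70, Snrpb2, Sf3a2 and U2af1, whose ratios lay on both sides of 1. The YY1 letters were in 3 genes (8.57%, beside 3.63%), the GC box (GGGCGG) in 21 (60%, beside 51.0%) and the CCAAT box, searched as these 5 letters, in 14 (40%, beside 42.0%). The E-box, searched as CACGTG, was in 2 genes (5.71%) beside 9.18% of all genes. The TATA box, searched as TATAAA, was likewise in 2 genes, beside 14.3%. The median GC content was 57.5% over the 42 windows of these genes, beside 57% over 20100 windows of all protein-coding genes. A match describes letters and not a site in use.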

How the data were processed

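The authors deposited, for each of the 2 libraries, UMI counts per gene and barcode with no normalisation, made with Cell Ranger 6.1.2 per the file headers and the study's methods. The submitters' processing notes list Cell Ranger 2.1.1 and build mm10. Whether intronic reads were counted was not given in the sources used here. As deposited, the matrices held 15162 wild-type and 13034 Usb1-null barcodes with 21751961 and 33775852 UMIs. The wild-type number of cells stated by the study was lower than this, and the Usb1-null number was the same. The study's limits on cells were applied, which are 200 to 6000 genes and under 30% of UMIs from mitochondrial genes. Scrublet in Scanpy 1.11.5 called 933 wild-type (6.15%) and 569 Usb1-null (4.37%) doublets, which were kept except in an alternative.

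CPM were taken from UMIs summed over a library or over its cells of a cluster. Poisson intervals for CPM, Clopper-Pearson intervals for shares and conditional binomial intervals for ratios were exact. Those for ratios were tested on simulated Poisson counts. For clustering, 2000 variable genes per library were chosen without the 43 genes and without Xist, Tsix and genes of ribosomal proteins, the mitochondrion and the Y chromosome. Then 30 principal components were corrected for library with Harmony rewritten in NumPy 2.4.6, and 15 neighbours were partitioned with leidenalg 0.10.2 at a resolution of 0.4, which gave 19 clusters. A cluster was named when at least 3 markers of 1 list were raised, more than of any other list, and its 10 leading genes held a marker of that list and no more markers of any other. This rule was set after the clusters were seen, and the names are not the study's, from which results may differ for that reason. Gene positions are from GENCODE M21 (GRCm38), in which 32235 of 32285 genes matched.

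The genes, role groups, pathway lists and rules were chosen with earlier results of these data known. Genes given in full were those past 1.25-fold, the LSm and Sm genes, and in each other role group those with the highest level, highest ratio and lowest ratio. In each pathway list they were those with the highest and lowest ratio. Of genes with a like profile, the 5 with the highest r were named. Further members, and the roles by which paired subunits were set side by side, were added after the values were seen.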

Additional observations from a re-analysis of the deposited data

How the results depend on the processing

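No paired analysis was possible because each group had 1 library, and no replicate could be left out. The summed share of the 43 genes had a ratio of 0.928, which moved to 0.954 with at least 1000 detected genes per cell, 0.914 without the mitochondrial, ribosomal protein, globin, Xist, Tsix and Y-linked genes in the total, and 0.981 among cells with 1500 to 2500 UMIs. The last and the centring on gene span were chosen after seeing the data. The median log2 ratio of the 43 genes, -0.17, was -0.11 with at least 1000 genes, -0.11 with cells thinned, -0.19 with the reduced total, -0.19 with cells weighted equally, -0.076 among cells with 1500 to 2500 UMIs, -0.16 with 5 CPM added and -0.088 when centred on gene span. The 9 lower and 3 higher genes became 2 and 1 at a fold of 1.5, where 3.96% of all genes were lower and 5.7% higher, and the 9 lower became 4 when centred on span. Of the pathway genes, 1 was lower and 0 higher at a fold of 1.5, and 16 were higher among cells with 1500 to 2500 UMIs, where 21.1% of all genes were. Their median, -0.022, was -0.015 with at least 1000 genes, -0.037 without doublets, -0.045 with the reduced total, -0.035 with cells weighted equally, -0.035 thinned and 0.051 among cells with 1500 to 2500 UMIs. The background of genes higher past the threshold, 14.8%, was 8.63% with a minimum of 500 UMIs. The highest wild-type cluster share was 0.489% without library correction. At single genes, centring on span turned Lsm2 to 0.19 and Snrnp27 to 0.024, and cells with 1500 to 2500 UMIs turned Snrpb to 0.027 and Snrpa1 to 0.066, and with intervals that held 1 in all cells Snrpb2 to 0.25, Prpf19 to 0.085 and Cdc5l to 0.074. The cause was not tested beyond what each setting changes. Of 430 single-gene values under alternatives, 379 moved by less than counting error. The number of genes lower in every cluster was 4 to 6 under the cluster alternatives, with Lsm7, Snrpd3 and Sf3b2 in each, and Snrpf was the gene higher in every cluster in each. Depth limits the values in small clusters, where single genes had as few as 3 UMIs.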
